A study of Mus musculus with 8 samples.

Results

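The 10 genes described here encode the main parts of MHC class I antigen processing, and were chosen by name as heavy chain, light chain, peptide loading, immunoproteasome and regulator genes. They are 10 of 49315 genes counted in gastrocnemius, the large calf muscle, of C57BL/6 mice aged 3, 12, 24 or 30 months. Each age has 2 libraries of total RNA from frozen muscle, 8 in all, and no other treatment or allele is labelled. The series asks how the muscle transcriptome differs with age. Whether libraries of 1 age are separate animals is not labelled, and p-values therefore speak of the spread between libraries alone, which may be technical.

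MHC class I molecules show peptides from inside a cell to CD8 T cells. Proteasomes cut cellular proteins into peptides, the TAP transporter carries these into the endoplasmic reticulum, and tapasin helps load them onto a heavy chain bound to beta-2 microglobulin. Interferons raise most of these genes in many cell types, with NLRC5 as the transactivator of class I promoters, and healthy muscle fibres are known for low class I at their surface.

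The promoters of both heavy chains and the light chain are shown first, because the regulator measured below acts through elements of this kind. Sequences are from RefSeq on GRCm38.p6, 250 bases before the start site, on the strand of the gene. They lie at chr17:34000348-34000597 (minus strand) for H2-K1, chr17:35262844-35263093 (plus strand) for H2-D1 and chr2:122147437-122147686 (plus strand) for B2m. Psmb9 and Tap1 start on opposite strands with 225 bases between their start sites, and that stretch is given as chr17:34187331-34187555, plus strand. Capitals mark, in the 3 promoters, a kappaB core, an interferon regulatory factor core, and the pair TGACG and ATTGG. These are the core letters of the X2 box and Y box. In the stretch between Psmb9 and Tap1, capitals mark TGACG alone.
H2-K1 promoter: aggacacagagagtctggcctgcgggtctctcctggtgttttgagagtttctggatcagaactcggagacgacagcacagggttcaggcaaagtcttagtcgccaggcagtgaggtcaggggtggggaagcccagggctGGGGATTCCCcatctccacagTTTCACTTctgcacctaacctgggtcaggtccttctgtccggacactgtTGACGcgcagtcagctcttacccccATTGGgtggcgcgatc
H2-D1 promoter: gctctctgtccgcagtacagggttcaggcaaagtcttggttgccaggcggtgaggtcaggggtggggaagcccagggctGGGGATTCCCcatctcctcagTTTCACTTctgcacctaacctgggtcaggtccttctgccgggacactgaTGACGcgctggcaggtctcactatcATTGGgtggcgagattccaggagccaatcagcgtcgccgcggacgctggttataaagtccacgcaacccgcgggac
B2m promoter: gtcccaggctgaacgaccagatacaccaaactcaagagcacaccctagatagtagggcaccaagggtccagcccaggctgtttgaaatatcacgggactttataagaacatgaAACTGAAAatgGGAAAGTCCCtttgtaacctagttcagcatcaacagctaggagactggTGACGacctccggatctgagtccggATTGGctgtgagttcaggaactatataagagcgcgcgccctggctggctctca
Stretch between Psmb9 and Tap1: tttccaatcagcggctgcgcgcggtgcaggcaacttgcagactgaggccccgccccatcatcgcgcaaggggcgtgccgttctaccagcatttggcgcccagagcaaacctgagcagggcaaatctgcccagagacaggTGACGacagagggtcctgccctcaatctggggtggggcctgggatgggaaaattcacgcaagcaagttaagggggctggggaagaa

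The pair TGACG and ATTGG, with 20 bases between the cores, was found in 3 of the 8 members with a promoter in the table. These 3 were H2-K1, H2-D1 and B2m. Of 27025 promoters of the same length, 25 held that pair (0.0925%), and another heavy chain gene, H2-M3, was among them. Only this spacing was counted, so the share holds for it alone. The printed promoters of H2-K1 and H2-D1 are alike over long runs, so the 3 matches are not independent. In H2-K1 the pair began 41 bases before the start site, in H2-D1 101 bases and in B2m 78 bases. Alone, and on either strand, TGACG was in 5 of the 8 members and in 17.9% of promoters, and ATTGG in 6 of the 8 and in 34.5%. The interferon regulatory factor core AANNGAAA was in 3 of the 8 and in 21.6% of promoters. The kappaB core GGGNNTTNCC was in 3 of the 8 and in 4% of promoters. For both cores the 3 members were again H2-K1, H2-D1 and B2m. In these promoters the marked motifs did not overlap one another, and ATTGG on the other strand of H2-D1 is not marked. A match describes these letters only. Tap2 and Nlrc5 have no entry in the table.

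Library totals were 42404254 to 59245029 counts, and a count of 0 still allows a level of 0.0506 to 0.0707 CPM, for counting error only, where CPM are counts per library scaled to a common size. The 10 genes together had 12483 to 19677 counts in a library. Levels below are CPM scaled by TMM, a factor that corrects for the make-up of each library. Muscle fibre markers such as Acta1 and Ckm summed to 221561 CPM in replicate 2 of 30 months, the lowest library, and to 374960 CPM in replicate 2 of 24 months, the highest. These are also the libraries with the highest and the lowest mean of the 10 class I genes, in that order, and the part of the fibre markers in the class I values was not tested. The libraries fell into 2 sets by transcripts of 9 kidney genes such as Umod. Their sum was 49.1 and 15.8 CPM in the libraries of 3 months, 5.01 CPM in replicate 1 of 12 months, 3.64 CPM in replicate 1 of 24 months and 2.97 CPM in replicate 2 of 30 months. In the other 3 libraries it was at most 0.410 CPM. Because both libraries of 3 months were in 1 set, results are also given within a set or with the set as a term in the model. The set is only a cut at 1 CPM, and the libraries of 3 months were the highest within theirs. With the set as a term, the kidney genes still had a median log2 fold change of -3.16 for 30 over 3 months, against -4.06 without it. Neither way removes the difference in kidney transcripts between 3 months and the other ages.

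All 10 genes were measured in every library and passed the low count filter, as did 19571 genes in all. Per length, B2m was the highest at 67.7 RPKM (CPM per kilobase of the deposited gene length, mean of 8 libraries). H2-D1 followed at 36.7 RPKM and H2-K1 at 28.0 RPKM. B2m, at 55.1 to 91.4 RPKM over the libraries, did not overlap H2-D1, at 26.5 to 47.4 RPKM. H2-D1 and H2-K1 overlapped in range, though H2-D1 was the higher in each library. Tapbp averaged 8.73 RPKM and Psmb10 5.50 RPKM, with no overlap between them. Tap2 at 2.43 RPKM and Psmb8 at 2.08 RPKM overlapped. Tap1 at 0.925 RPKM, Psmb9 at 0.707 RPKM and Nlrc5 at 0.519 RPKM were the lowest, and neighbours among them overlapped. This order depends on the length used, and no other length was tried. The deposited length was 860 bases for B2m, 2579 for H2-D1, 2608 for H2-K1 and 3659 for Psmb9. The longest coding transcript in GENCODE M21, an annotation, has 860, 2102, 1619 and 1352 bases in the same order. Psmb9 rested on 103 to 184 counts in a library and Nlrc5 on 139 to 359, against 3502 to 6507 for H2-D1.

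At 30 months the fitted level of each of the 10 genes was above that at 3 months, but none was called at an adjusted p below 0.05. The median log2 fold change of the 10 genes was 0.42, with a range of 0.17 to 0.62, beside a median of 0.01 over all 19571 genes tested. In all, 51.4% of genes tested were above 0. In the same edgeR quasi-likelihood test, with Benjamini-Hochberg adjustment over all genes tested, 29 genes were called (0.148%). At an unadjusted p below 0.05 there were 3 of the 10 genes, Tap1, Tap2 and Psmb9, beside 8.52% of all genes. In 9 of the 10 genes, both libraries of 30 months were above both of 3 months, as in 21.1% of genes tested, and B2m was the exception. That count was 5 of the 10 with libraries scaled by their totals alone, where the median of all genes was 0.04. The share of 21.1% holds for TMM scaling only. The highest mean level was at 30 months in 9 of the 10 genes, beside 24.4% of genes tested. Within the set with kidney transcripts, replicate 2 of 30 months was above the mean of 3 months in 10 of the 10 genes. That count rests on a single library, the highest of all in the mean of the 10 genes, and no share of all genes is given beside it. The other library of 30 months has no library of 3 months in its set.

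**Figure D1:**
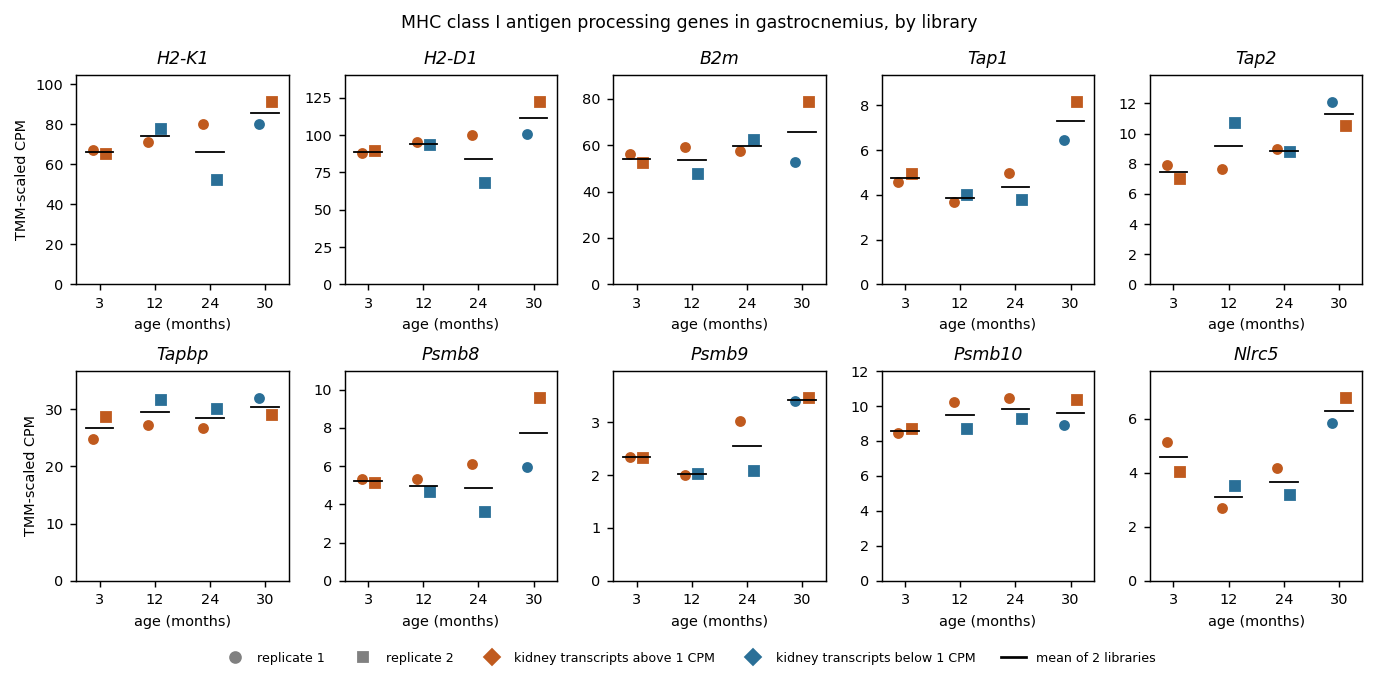
Level of each of the 10 class I genes (y axis, TMM-scaled CPM, from 0) by age in months (x axis), 1 point per library and a bar for the mean of 2 libraries; circles and squares are replicates 1 and 2 and colour gives the kidney transcript set. In H2-K1, H2-D1, Tap1, Psmb9 and Nlrc5 both points of 30 months lie above all others, in H2-K1 and H2-D1 by a small margin. In B2m replicate 1 of 30 months lies between the points of 3 months.

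Among the heavy chains, which bind and display the peptide, H2-K1 (ENSMUSG00000061232, GRCm38 chromosome 17, 33996017 to 34000333) was at 67.1 and 65.1 CPM (3 months), 71.1 and 77.6 CPM (12 months), 79.9 and 52.3 CPM (24 months), and 80.2 and 91.2 CPM (30 months). Replicate 2 of 24 months was the lowest library and replicate 2 of 30 months the highest. Both libraries of 30 months were above all others, replicate 1 by a small margin over replicate 1 of 24 months. The mean was 85.7 ± 7.8 CPM in muscle of 30 months and 66.1 ± 1.4 CPM in that of 3 months (SD, n = 2 each), a log2 fold change of 0.37 (SE 0.20, edgeR adjusted p = 0.668, 95% interval -0.08 to 0.83).

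H2-D1 (ENSMUSG00000073411, chromosome 17, 35262730 to 35267499), the other classical heavy chain, had the same order of libraries at both ends. It was at 88.1 and 89.7 CPM (3 months), 95.5 and 93.2 CPM (12 months), 99.9 and 68.2 CPM (24 months), and 101 and 122 CPM (30 months). The gap between the libraries of 24 months was larger than that between the means of 30 and 3 months. Between 30 and 3 months H2-D1 had a log2 fold change of 0.33 (SE 0.20, edgeR adjusted p = 0.722, 95% interval -0.12 to 0.77). Of the 50-base stretches of its transcript in GENCODE M21, 14.3% also occur in transcripts of other genes, read on either strand, and 8.79% of those of H2-K1 do. The sources used here do not give how such reads were counted, and the split between heavy chains is uncertain.

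B2m (ENSMUSG00000060802, chromosome 2, 122147686 to 122153083) encodes the light chain that every class I heavy chain needs. It was at 56.0 and 52.1 CPM (3 months), 59.4 and 47.4 CPM (12 months), 57.5 and 62.0 CPM (24 months), and 52.9 and 78.6 CPM (30 months). Only replicate 2 of 30 months stood above the rest, and replicate 1 of 30 months lay between the libraries of 3 months. For B2m, 30 over 3 months gave a log2 fold change of 0.28 (SE 0.20, edgeR adjusted p = 0.79, 95% interval -0.18 to 0.74). Without replicate 2 of 30 months it was -0.029.

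Of the peptide loading genes, Tap1 (ENSMUSG00000037321, chromosome 17, 34187553 to 34197225) encodes 1 subunit of the peptide transporter. Its level was 4.58 and 4.91 CPM (3 months), 3.70 and 4.0 CPM (12 months), 4.98 and 3.76 CPM (24 months), and 6.44 and 8.16 CPM (30 months). Both libraries of 30 months were above the other 6. Tap1 had a log2 fold change of 0.62 for 30 over 3 months (SE 0.21, edgeR adjusted p = 0.406, 95% interval 0.16 to 1.09). For 30 over 12 months it was 0.92 (SE 0.21, edgeR adjusted p = 0.479, 95% interval 0.45 to 1.39).

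Tap2 (ENSMUSG00000024339, chromosome 17, 34203527 to 34216321), the other subunit of the transporter, followed another order. It was at 7.95 and 6.97 CPM (3 months), 7.65 and 10.7 CPM (12 months), 8.97 and 8.77 CPM (24 months), and 12.1 and 10.5 CPM (30 months). Replicate 2 of 12 months overlapped the libraries of 30 months, and both libraries of 30 months were above both of 3 and both of 24 months. Tap2 had a log2 fold change of 0.60 for 30 over 3 months (SE 0.19, edgeR adjusted p = 0.379, 95% interval 0.17 to 1.03). A long noncoding gene on the other strand, Gm15821, overlaps Tap2, and the sources used here do not give the strand setting.

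Tapbp (ENSMUSG00000024308, chromosome 17, 33915899 to 33929288) encodes tapasin, which bridges the transporter and the heavy chain. It was at 24.7 and 28.7 CPM (3 months), 27.2 and 31.7 CPM (12 months), 26.8 and 30.1 CPM (24 months), and 31.9 and 29.0 CPM (30 months). The libraries of 30 months were above those of 3 months by a small margin and overlapped those of 12 and of 24 months. The fitted difference of 30 over 3 months was 0.19 on the log2 scale (SE 0.15, edgeR adjusted p = 0.813, 95% interval -0.15 to 0.53). Its transcript shares 21.0% of its 50-base stretches with other genes, read on either strand, most of them with the antisense gene Gm19412. Zbtb22 overlaps Tapbp on the same strand. B2m, Psmb8, Psmb10 and Nlrc5 also have an overlapping annotated gene on the other strand.

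The immunoproteasome genes encode the catalytic subunits that take the place of constitutive ones when interferon is present. Psmb8 (ENSMUSG00000024338, chromosome 17, 34197721 to 34201454) was at 5.34 and 5.12 CPM (3 months), 5.32 and 4.64 CPM (12 months), 6.13 and 3.58 CPM (24 months), and 5.95 and 9.55 CPM (30 months). Replicate 2 of 30 months was well above every other library, and replicate 2 of 24 months was the lowest. The log2 fold change of 30 over 3 months was 0.57 (SE 0.29, edgeR adjusted p = 0.653, 95% interval -0.08 to 1.22). It was 0.19 without replicate 2 of 30 months and 0.87 without replicate 1.

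Psmb9 (ENSMUSG00000096727, chromosome 17, 34181988 to 34187764) was at 2.36 and 2.34 CPM (3 months), 2.01 and 2.03 CPM (12 months), 3.03 and 2.08 CPM (24 months), and 3.41 and 3.46 CPM (30 months). The libraries agreed closely at each age but 24 months, and both of 30 months were above the other 6. Psmb9 had a log2 fold change of 0.55 for 30 over 3 months (SE 0.23, edgeR adjusted p = 0.561) and 0.77 for 30 over 12 months (SE 0.23, edgeR adjusted p = 0.739). The annotated spans of Psmb9 and Tap1 overlap by 212 bases on opposite strands. Of the 50-base stretches of Psmb9, 12.5% also occur in Tap1 transcripts, read on either strand. These spans reach beyond the RefSeq start sites, and the stretch printed above lies within the span of Psmb9.

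Psmb10 (ENSMUSG00000031897, chromosome 8, 105935735 to 105938444) had the smallest fitted difference of 30 over 3 months among the immunoproteasome genes. Its level was 8.47 and 8.68 CPM (3 months), 10.2 and 8.68 CPM (12 months), 10.4 and 9.27 CPM (24 months), and 8.92 and 10.3 CPM (30 months). It was the 1 gene of the 10 with its highest mean at 24 months. The log2 fold change of 30 over 3 months was 0.17 (SE 0.16, edgeR adjusted p = 0.853, 95% interval -0.20 to 0.53).

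Each immunoproteasome subunit was also set against the constitutive subunit it replaces, as a ratio of CPM in each library. Psmb8 over Psmb5 was 0.0704 and 0.0645 (3 months), 0.0632 and 0.0583 (12 months), 0.0780 and 0.0814 (24 months), and 0.0796 and 0.114 (30 months). All 4 libraries of 24 and 30 months were above all 4 of 3 and 12 months. The log2 ratio averaged -3.52 ± 0.26 at 24 and 30 months and -3.97 ± 0.11 at 3 and 12 months (SD, n = 4 each). The difference of 0.45 had p = 0.0286 in a two-sided exact permutation test over the 70 arrangements, the smallest p they can give, and an adjusted p of 0.0857 over the 3 ratios. Psmb5 itself was at 44.5 CPM in replicate 2 of 24 months and at 75.2 to 84.7 CPM in the other 7 libraries. Without that library, the difference was 0.48 and its adjusted p 0.0429, while the other 9 alternatives gave adjusted p values of 0.0833 to 0.0857. Its own p was again the smallest the arrangements can give, so the lower adjusted p comes from the other ratios.

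Psmb9 over Psmb6 was 0.0208 and 0.0202 (3 months), 0.0169 and 0.0182 (12 months), 0.0274 and 0.0206 (24 months), and 0.0299 and 0.0303 (30 months). The older libraries overlapped the younger ones by a single library of 24 months. The log2 difference of 24 and 30 over 3 and 12 months was 0.50 (exact permutation p = 0.0571, adjusted p = 0.0857). Replicate 2 of 24 months is that library. Leaving it out ends the overlap by construction, so the adjusted p of 0.0429 for the remaining difference of 0.62 adds no support, and the other 9 alternatives gave 0.0833 to 0.129. Psmb10 over Psmb7 was 0.0697 and 0.0731 (3 months), 0.0904 and 0.0711 (12 months), 0.0906 and 0.0804 (24 months), and 0.0777 and 0.0969 (30 months). Replicate 1 of 12 months lay among the older libraries, and the difference was 0.19 (exact permutation p = 0.171, adjusted p = 0.171). Within each kidney transcript set, every library of 24 and 30 months was above every library of 3 and 12 months for each of the 3 ratios. For Psmb8 over Psmb5 this follows from the separation of all libraries. For Psmb10 over Psmb7 the nearest libraries in the set with kidney transcripts were at 0.0906 and 0.0904. The other set holds a single younger library, and this split was made after seeing the data, so it adds no support.

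**Figure D2:**
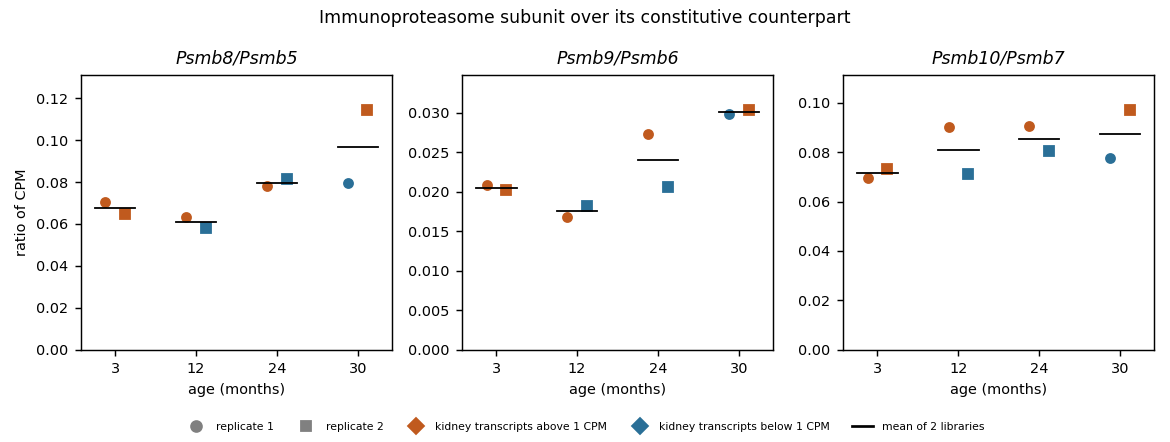
Ratio of CPM of each immunoproteasome subunit to its constitutive counterpart (y axis, from 0) by age in months (x axis), 1 point per library and a bar for the mean of 2 libraries. For Psmb8 over Psmb5 the 4 libraries of 24 and 30 months lie at 0.0780 to 0.114 and the 4 of 3 and 12 months at 0.0583 to 0.0704, and the other ratios overlap between these ages.

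Nlrc5 (ENSMUSG00000074151, chromosome 8, 94434356 to 94527272), the class I transactivator, was at 5.14 and 4.02 CPM (3 months), 2.71 and 3.49 CPM (12 months), 4.18 and 3.16 CPM (24 months), and 5.84 and 6.75 CPM (30 months). Both libraries of 30 months were above the other 6, and both of 12 months were below both of 3 months. The log2 fold change of 30 over 12 months was 1.02 (SE 0.23, edgeR adjusted p = 0.479, 95% interval 0.50 to 1.55). For 30 over 3 months it was 0.46 (SE 0.23, edgeR adjusted p = 0.644, 95% interval -0.06 to 0.98). For 12 over 3 months it was -0.56 (SE 0.23, edgeR adjusted p = 0.898, 95% interval -1.09 to -0.04).

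Set against 12 months, muscle of 30 months again had a higher fitted level of all 10 genes, with none called beside 1 gene of all tested (0.00511%). Without a filter on low counts, Tap1 (edgeR adjusted p = 0.0287) and Nlrc5 (edgeR adjusted p = 0.0132) were called, beside 139 genes of all tested that way (0.414%). The median of the 10 genes was 0.30 on the log2 scale, beside 0.00 over all genes. An unadjusted p below 0.05 was reached by Nlrc5, Tap1 and Psmb9, beside 5.21% of genes. Both libraries of 30 months were above both of 12 months in 6 of the 10 genes, beside 16.1% of genes tested. The 4 that overlapped were B2m, Tap2, Tapbp and Psmb10. Each of the 10 genes was also higher at 30 than at 12 months within each kidney transcript set, where a single library stands against a single library. No share of all genes is given beside this count. Of the 45 pairs of these genes 40 correlated positively over the libraries, so the 10 are not independent. Tap1 was higher by 1.13 on the log2 scale in the set with kidney transcripts and by 0.68 in the other set, and Nlrc5 by 1.31 and 0.74 in the same order. Some margins were close to none, with Psmb10 at 0.010 and 0.039, Tapbp at 0.091 and 0.011, and H2-K1 at 0.36 and 0.048.

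Against 24 months, 9 of the 10 genes were higher at 30 months, with a median log2 fold change of 0.39, and 0 of all genes tested were called by edgeR (0%). There were 606 genes at an unadjusted p below 0.05, and DESeq2 and limma-voom called 0 too. The median was 0.71 without replicate 1 of 24 months and 0.19 without replicate 2. In 6 of the 10 genes both libraries of 30 months were above both of 24 months, beside 13.3% of genes tested. Scaling by library totals alone shifted the median of all genes in this comparison to 0.13, and that of the 10 genes to 0.50.

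The 3 younger ages were compared in the same way. At 24 against 3 months the median of the 10 genes was 0.04 on the log2 scale, 6 of the 10 were positive (4, with a median of -0.04, under scaling by library totals alone), and none was called beside 20 genes of all tested (0.102%). The libraries of 24 months lay apart, and the median was -0.25 with 4 positive without replicate 1, and 0.19 with 8 positive without replicate 2. Both libraries of 24 months were above both of 3 months for B2m, Tap2 and Psmb10, 3 of the 10 beside 20.0% of genes. At 12 against 3 months none of the 10 was called beside 8 of all genes (0.0409%). H2-K1, H2-D1 and Psmb10 had both libraries of 12 months above both of 3 months, beside 19.3% of genes. Tap1, Psmb9 and Nlrc5 had both below, beside 19.2%. At 24 against 12 months 0 genes were called by edgeR (0%), with 600 at an unadjusted p below 0.05. DESeq2 called 2 there, and limma-voom 0. Psmb9 was the 1 gene of the 10 with both libraries of 24 months above both of 12 months, beside 14.0% of genes.

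With the 2 older ages against the 2 younger ones, all 10 genes were positive and none was called, beside 17 of all genes (0.0869%). Psmb9 had the largest log2 difference of the 10, 0.45 (SE 0.16, edgeR adjusted p = 0.53), and Tap1 the next, 0.40 (SE 0.15, edgeR adjusted p = 0.528). H2-K1 and H2-D1 were at 0.10 and 0.08. In a model with a slope on age, none of the 10 was called beside 26 of all genes (0.133%). The slope of Tap1 was 0.021 per month on the log2 scale (SE 0.0096, edgeR adjusted p = 0.52), and that of Tap2 0.018 (SE 0.0066, edgeR adjusted p = 0.383).

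With the library set as a term, none of the 10 was called for 30 over 3 months, where 2.13% of genes were. The lowest adjusted p values there were 0.0517 for Psmb8, with a log2 fold change of 0.81, and 0.0804 for Tap1, with 0.72. For 30 over 12 months none was called, beside 0.281% of genes, and the lowest were 0.0668 for Tap1 and 0.0821 for Nlrc5.

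**Figure D3:**
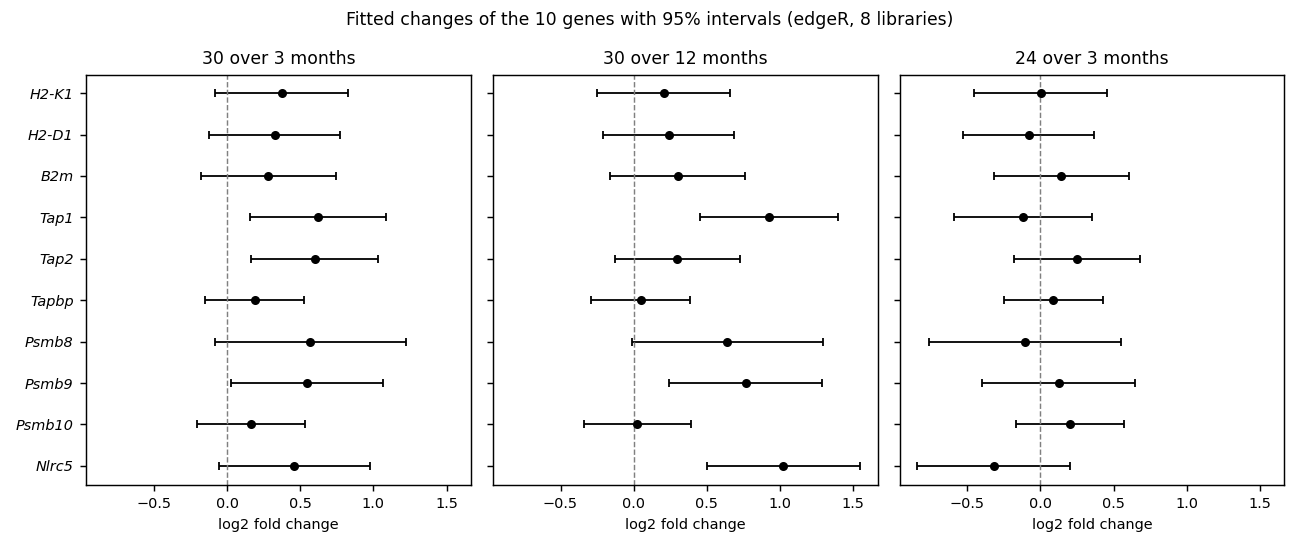
Fitted log2 fold change (x axis) of each of the 10 genes (y axis) for 30 over 3, 30 over 12 and 24 over 3 months, from the edgeR model of 8 libraries, with lines for the 95% interval. For 30 over 3 months all 10 points lie right of 0, between 0.17 and 0.62, and the intervals of Tap1, Tap2 and Psmb9 do not include 0.

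Across the 8 libraries the genes did not all follow 1 order. Of the 45 pairs of genes, 40 correlated positively, and 3 had both an adjusted Pearson p and an adjusted Spearman p below 0.05 over the 45 pairs. These 3 were H2-K1 with H2-D1, Tap1 with Psmb9, and Tap1 with Nlrc5. The pair of heavy chains had Pearson's r = 0.96 (exact permutation p = 0.000422, adjusted p = 0.00949) and Spearman's rho = 0.95 (exact permutation p = 0.00114, adjusted p = 0.0171). Without the 2 libraries farthest from the median of H2-K1, r was 0.87. These 2 genes share sequence.

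Tap1 and Nlrc5 had r = 0.92 (exact permutation p = 0.000769, adjusted p = 0.0115) and rho = 0.93 (exact permutation p = 0.00223, adjusted p = 0.0251). Without both libraries of 30 months, the farthest in Tap1, r was 0.81. Tap1 and Psmb9, which lie side by side and overlap, had r = 0.93 (exact permutation p = 0.000149, adjusted p = 0.0067) and rho = 0.95 (exact permutation p = 0.00114, adjusted p = 0.0171), and r = 0.84 without the same 2 libraries. The kidney transcript sets hold 5 and 3 libraries, too few for a correlation within each.

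**Figure D4:**
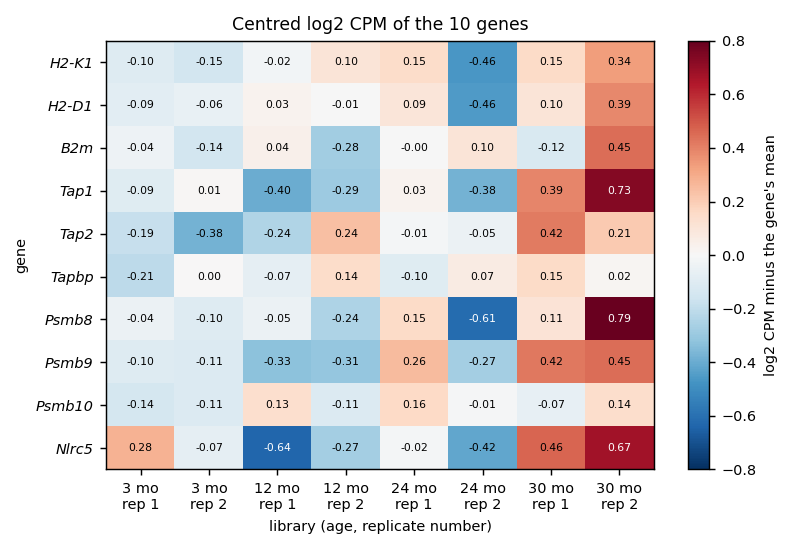
Log2 CPM of each of the 10 genes (rows) in each library (columns), minus the mean of that gene over the 8 libraries, in colour and as printed values. Replicate 2 of 30 months is above the gene mean in all 10 genes, most in Psmb8 at 0.79 and Tap1 at 0.73, and replicate 2 of 24 months is lowest for H2-K1, H2-D1 and Psmb8.

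The mean of the 10 genes, each centred on its own mean of log2 CPM, was -0.07 and -0.11 (3 months), -0.15 and -0.10 (12 months), 0.07 and -0.25 (24 months), and 0.20 and 0.42 (30 months). Both libraries of 30 months were thus the highest of the 8, and replicate 2 of 24 months the lowest. Among 9629 other genes with an average log2 CPM of at least 2, the 10 most like this pattern included Cxcl12, a chemokine, at r = 0.96. Next came H2-Q6 at 0.95, Mafk at 0.95, H2-Q7 at 0.95 and Slc9a7 at 0.94. Cybb, Shc1, Acss1, Shisa5 and Cds2 were at 0.94 to 0.93. These are Pearson correlations over 8 libraries, given as a description, and 25 genes were at 0.9 or above. H2-Q7 shares 34.9% of its 50-base stretches with other genes, read on either strand, most often with H2-Q6. Cybb, the phagocyte oxidase subunit, was at 8.70 and 12.0 CPM at 30 months and at 4.31 to 7.24 CPM in the other 6 libraries.

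Of 17 other class I heavy chain genes, 12 were tested and none was called in any comparison. For 30 over 3 months 9 of the 12 were positive, with a median log2 fold change of 0.34. H2-Q6, a nonclassical heavy chain, was at 11.1 and 12.9 CPM at 30 months, against 7.48 and 7.32 CPM at 3 months. Its log2 fold change was 0.70 (SE 0.17, edgeR adjusted p = 0.234), and for 30 over 12 months it was 0.98 (SE 0.17, edgeR adjusted p = 0.354). With a library set term, the edgeR adjusted p of H2-Q6 for 30 over 3 months was 0.029, where 2.13% of genes were called. H2-M3, whose promoter also holds the pair of box cores, was at 0.64 (SE 0.26, edgeR adjusted p = 0.554), H2-T10 at 0.62 and H2-Q7 at 0.56. Both libraries of 30 months were above both of 3 months in 6 of the 12, beside 21.1% of genes tested.

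Of 12 partners in loading and trimming, 8 were positive for 30 over 3 months, with a median of 0.16 and none called. The chaperone genes Hspa5 and Canx were at 0.34 and 0.31, the tapasin relative Tapbpl at 0.33 and the cytosolic aminopeptidase gene Npepps at 0.31 (SE 0.14, edgeR adjusted p = 0.582). Of 5 proteasome activator and assembly genes, 4 were positive, with Psme4 the exception at -0.32 (SE 0.23, edgeR adjusted p = 0.783). Psme2 was at 0.20, the assembly chaperone gene Pomp at 0.19 and Psme1 at 0.10. The 3 constitutive catalytic subunits, Psmb5, Psmb6 and Psmb7, were at 0.03, -0.01 and -0.12.

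Among 14 regulators of class I transcription none was called and 6 were positive for 30 over 3 months, with a median of -0.04. The interferon regulatory factor gene Irf8 was at 0.65 (SE 0.23, edgeR adjusted p = 0.446), Rfx5, which encodes a protein that binds class I and II promoters, at 0.55, the class II transactivator gene Ciita at 0.50 and the NF-kappaB subunit gene Rela at 0.42. Of 12 interferon receptors and signal transducers, 6 were positive, with a median of 0.04 and none called. The kinase gene Jak2 was at -0.89 (SE 0.34, edgeR adjusted p = 0.516). With a library set term its edgeR adjusted p was 0.00145, where 2.13% of genes were called. Jak2 was at 58.8 and 36.4 CPM at 30 months, against 84.0 and 92.6 CPM at 3 months. Stat2 was at 0.40, Tyk2 at 0.37 and the inhibitor gene Socs1 at 0.35.

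All 30 interferon-stimulated genes were positive for 30 over 3 months, with a median log2 fold change of 0.69, and none was called by edgeR after the low count filter. Without the filter Cxcl10 (edgeR adjusted p = 2.7e-05), Zbp1 (0.0269) and Igtp (0.0293) were called, beside 1.12% of genes. DESeq2 called Cxcl10 and Irf7, beside 1.04%, and edgeR with a library set term called Cxcl10 and Igtp, beside 2.13%. Without replicate 2 of 30 months, 18 of the 30 were positive with a median of 0.09, and Cxcl10 was called (edgeR adjusted p = 0.029), beside 0.205% of genes. Without replicate 1 of 30 months the median was 1.07, and Oasl2, Irf7 and Ifit1 were called, beside 0.253%. Igtp and Oasl2 were named after their values were seen. Both libraries of 30 months were above both of 3 months in 11 of the 30, beside 21.1% of genes tested. They were above both of 12 months in 21 of the 30, beside 16.1%. Cxcl10, a chemokine, was at 0.26 and 0.39 CPM (3 months), 0.37 and 0.39 CPM (12 months), 0.90 and 1.60 CPM (24 months), and 2.46 and 0.94 CPM (30 months). Its log2 fold change of 30 over 3 months was 2.36 (SE 0.52, edgeR adjusted p = 0.189), and its slope on age had an adjusted p of 0.0629 in edgeR. The interferon regulator gene Irf7 was at 1.67 (SE 0.54, edgeR adjusted p = 0.409), and stood at 12.6 CPM in replicate 2 of 30 months and at most 3.47 CPM elsewhere. Zbp1 and Ifit1 were at 1.46 and 1.37. The 30 genes summed to 146 and 250 CPM at 30 months, against 143 and 130 CPM at 3 months. Of 5 interferon genes, none was tested, and their sum was at most 0.169 CPM in a library.

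**Figure D5:**
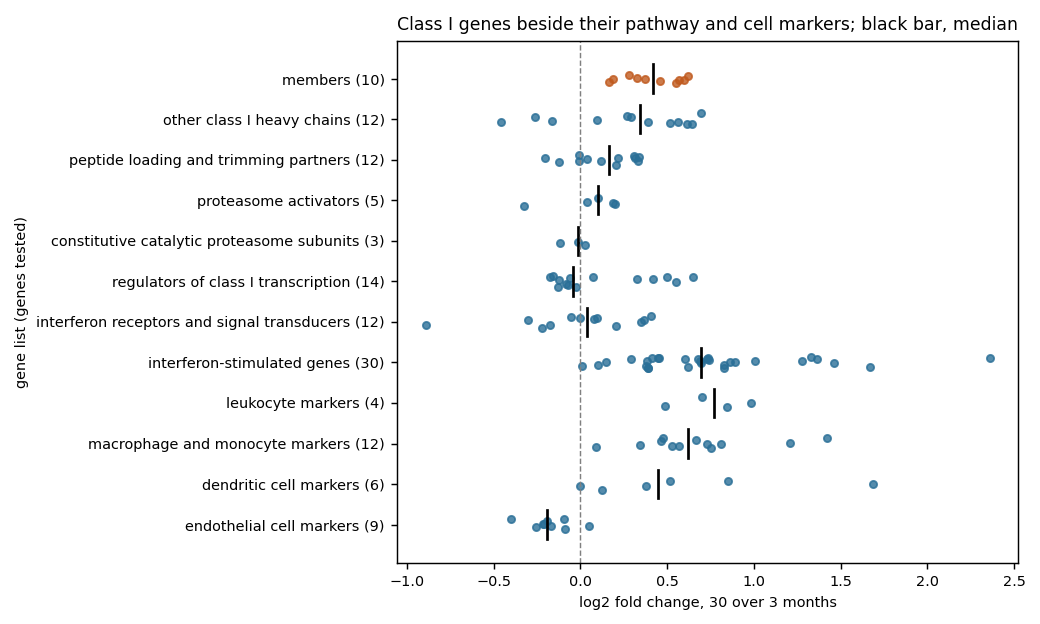
Log2 fold change of 30 over 3 months (x axis) for each tested gene of the class I list and of pathway and cell marker lists (y axis, number tested in brackets), with a black bar for the median of a list. The 10 class I genes have a median of 0.42, interferon-stimulated genes 0.69, leukocyte markers 0.77 and constitutive catalytic subunits -0.01, and no gene shown was called in the edgeR model of 8 libraries.

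Markers of other cell types were read beside these values, and in the model of 8 libraries, after the low count filter, none was called in any comparison. The 4 leukocyte markers summed to 31.8 and 41.3 CPM at 30 months, against 21.7 and 24.7 CPM at 3 months, with 4 of 4 positive. The 12 macrophage and monocyte markers summed to 211 and 387 CPM at 30 months, against 188 and 212 CPM at 3 months, with 12 of 12 positive and a median of 0.62. They were lowest in replicate 2 of 24 months, at 127 CPM, the library where H2-K1, H2-D1 and Psmb8 were lowest, and highest in replicate 2 of 30 months, where those 3 were highest. The other class I genes were not lowest in replicate 2 of 24 months. B2m and Tapbp stood above their own means of log2 CPM in that library, by 0.10 and 0.07. With the library set as a term, 2.13% of genes were called for 30 over 3 months. Among them were 8 of the 12 macrophage and monocyte markers and 3 of the 4 leukocyte markers. The part of these cells in the class I values was not tested. In bulk muscle, more cells of a type and more RNA per cell cannot be told apart. Of the 11 T and NK cell markers 8 were at 0 in some library. They summed to 1.11 to 2.96 CPM over all 8 libraries. The 6 markers of B and plasma cells summed to 3.45 and 4.34 CPM at 30 months, against 1.47 and 1.37 CPM at 3 months, with 6 of 6 positive and a median of 0.87. Jchain, the joining chain of antibodies, was called among them by DESeq2 (log2 3.25, adjusted p = 1.5e-05), beside 1.04% of genes. It was also called by edgeR without the low count filter (adjusted p = 0.0165), beside 1.12%. The 6 dendritic cell markers summed to 5.16 and 8.46 CPM at 30 months, against 4.43 and 4.78 CPM at 3 months, with 5 of 6 positive and a median of 0.45. Itgax, an integrin subunit, was called with a library set term (log2 2.10, edgeR adjusted p = 0.0045), beside 2.13% of genes. Without the low count filter it was called too (edgeR adjusted p = 0.0047), beside 1.12%. The part of these cells in the class I values was not tested. Jchain and Itgax were named after their values were seen. The 9 endothelial markers summed to 215 and 295 CPM at 30 months, against 298 and 285 CPM at 3 months, with 1 of 9 positive. Those of fibroadipogenic progenitors, 1 of 6 positive, summed to 496 and 549 CPM at 30 months, against 631 and 644 CPM at 3 months. Without replicate 2 of 30 months, 9 of the 10 class I genes were positive for 30 over 3 months, with a median of 0.27. On the same terms 11 of the 12 macrophage and monocyte markers were positive, with a median of 0.11. Medians were 0.57 for leukocyte markers (4 of 4 positive), 1.13 for B and plasma cell markers (6 of 6) and 1.05 for tested T and NK cell markers (3 of 3). They were -0.0045 for dendritic cell markers (3 of 6), -0.45 for endothelial markers (0 of 9) and -0.47 for fibroadipogenic progenitor markers (0 of 6). With replicate 1 of 30 months left out instead, 10 of the 10 class I genes were positive, with a median of 0.52. Marker medians were then 1.00 for macrophage and monocyte (12 of 12), 0.89 for leukocyte (4 of 4) and 0.74 for B and plasma cell (4 of 6). The others were 0.12 for tested T and NK cell (2 of 3), 0.68 for dendritic cell (6 of 6), 0.0093 for endothelial (5 of 9) and -0.28 for fibroadipogenic progenitor (1 of 6).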

How the data were processed

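RNA of 8 gastrocnemius samples was sequenced. The deposited values are counts per Ensembl gene made by the authors, 49315 genes in each library, beside a gene length. The submitters' processing notes list GRCm38 as the build and, with no role, the tools STAR 2.5.2b, Subread 1.5.2, Trimmomatic 0.36 and featureCounts. Symbols came from GENCODE M21 and matched 48970 identifiers.

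The low count filter was filterByExpr of edgeR 4.0.16 (R 4.3.3), which left 19571 genes, and scaling was by TMM. A robust quasi-likelihood model of the 4 ages over 8 libraries, with 4 residual degrees of freedom, gave the contrasts, and another model the slope. A gene was called below 0.05 after Benjamini-Hochberg adjustment over all genes kept. Log2 CPM used a prior count of 2. The procedure was tested on simulated data.

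Other settings tried were scaling by RLE or by library totals alone, other low count filters, DESeq2 1.42.0, limma-voom (limma 3.58.1), a replicate block, the library set as a term (9 kidney genes above or below 1 CPM), only the libraries compared, and each library left out. The slope was also fitted without the 3 month libraries. Within-set differences, correlations of pairs and counts of non-overlapping libraries were added after seeing the data.

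The 10 genes, the lists of 98 pathway genes and the markers were chosen with earlier results of these data known. From each pathway list the text names up to 4 tested genes with the largest change of 30 over 3 months. Likeness is to the mean of the 10 genes, over named genes. H2-K1 has 2 RefSeq promoters, and the first is used.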

Additional observations from a re-analysis of the deposited data

How the results depend on the processing

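None of the 10 class I genes was called in any comparison under any alternative except 30 over 12 months without a low count filter, where 2 were, Tap1 and Nlrc5. The cause was not tested. Without that filter 139 genes of all were called there, beside 1 with it. For 30 over 3 months, 29 genes of all were called, against 378 without a filter, 207 by DESeq2, 416 with the library set as a term, 19 at 1 CPM in 2 libraries, 13 with a replicate block, and 10 to 52 with a library left out. The number of the 10 genes with both libraries of 30 months above both of 3 months was 9 with TMM or RLE. It was 5 with library totals alone and 9 to 10 with a library left out. For 30 over 12 months it was 6 to 8 with a library left out. Values were not rescaled, so leaving a library out can only keep or raise such a count, and these ranges add no support. The share over all genes, 21.1% for 30 over 3 months, is for TMM with all libraries. With each library left out in turn, some log2 fold changes turned sign. For 30 over 12 months B2m ran from -0.0136 (no replicate 2 of 30 months) to 0.554, Tapbp from -0.0574 (no replicate 1 of 12 months; -0.026 with no replicate 1 of 30 months) to 0.164, and Psmb10 from -0.087 (no replicate 2 of 12 months; -0.0841 with no replicate 2 of 30 months) to 0.149. For 30 over 3 months B2m ran from -0.0287 (no replicate 2 of 30 months) to 0.539. Without replicate 2 of 30 months the same comparison gave 0.18 for H2-D1, 0.19 for Psmb8 and 0.061 for Psmb10, against 0.33, 0.57 and 0.17 with all libraries. Tapbp gave 0.086 without replicate 1 of 3 months and Nlrc5 0.30 without replicate 2 of 3 months. For the older over the younger pair of ages, H2-K1 ran from -0.066 to 0.235 and H2-D1 from -0.0708 to 0.20, both lowest with replicate 1 of 24 months left out. With a library left out, the log2 difference was 0.32 to 0.50 for Psmb8 over Psmb5 and 0.44 to 0.62 for Psmb9 over Psmb6. Replicate numbers did not pair the samples, since the correlations of same-numbered deviations ran from -0.36 to 0.26. A replicate block left each count of called class I genes at 0. An age left with 1 library borrows its spread from the rest. Without the 3 month libraries the slope gave 0 calls over all genes. Depth limits Psmb9 most, with 103 counts in its lowest library, and 2 libraries an age limit all tests.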
